A study of Homo sapiens with 6 samples.

Results

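The regions described here are m6A peaks of control U-251 MG cells that were met again after TRA2A knockdown and were missing after METTL3 knockdown. The peaks were chosen by overlap between the deposited lists: a control peak counts when an shTRA2A peak on its strand covers 1 base of it or more and no shMETTL3 peak on that strand covers any. Of 9206 control peaks, 421 did so, 4.57%, in 354 genes. U-251 MG is a human glioblastoma cell line. The compared cells carried a short hairpin RNA against METTL3 (shMETTL3), a hairpin against TRA2A (shTRA2A) or a control hairpin (shNC), and all came from that cell line. Of the 6 libraries, each of 3 conditions had 1 pull-down and 1 input, which gave 1 peak list. There is no replicate check and no test between conditions, and the residual level of each target is not measured by peak lists. METTL3 had no peak in any list, and TRA2A had 1 shTRA2A peak and no shMETTL3 or control peak. Here "missing" means only that no shMETTL3 peak lay on the region, since presence or absence in the lists chose the peaks.

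N6-methyladenosine is placed on RNA by a nuclear writer complex in which METTL3 is the catalytic subunit, METTL14 holds the RNA and WTAP, VIRMA and ZC3H13 act as regulatory subunits. It is known to lie mostly in long exons and near stop codons, and reader proteins of the YTH family bind it. TRA2A is an SR-like RNA-binding protein known for regulating splicing. In the assay, an m6A antibody enriches RNA fragments, which are sequenced next to the input that was not enriched, and a stretch with more enriched than input reads is called a peak. Writers are also known to mark primary microRNA transcripts, the long precursors from which hairpins are cut.

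Of the 421 peaks, 2 lay within 1000 nt of a microRNA hairpin on their own strand. The same count was not made for all control peaks, so whether 2 is few or many is not known. The mature microRNAs are shown because they are the products of those neighbouring hairpins. The peak of MIR9-2HG, the host transcript of a neural microRNA, was at chr5:88667063-88667412 on the minus strand of GRCh38. It lay 123 nt from the hairpin MIR9-2 (chr5:88666853-88666939), on its 5′ side. The other peak, at chr4:112646876-112647446 on the minus strand, lay in the body of LARP7 on the strand opposite to that gene. It was 427 nt from the hairpin MIR367, on its 3′ side, and 557, 736 and 916 nt from MIR302D, MIR302A and MIR302C, microRNAs known from pluripotent cells. Mature sequences are from RefSeq (GRCh38.p14), with the seed, bases 2 to 8, in capitals. The 3p strands of the 3 miR-302 members share a seed.
hsa-miR-9-5p: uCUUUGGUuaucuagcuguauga
hsa-miR-9-3p: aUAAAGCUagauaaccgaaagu
hsa-miR-302a-3p: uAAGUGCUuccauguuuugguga
hsa-miR-302c-3p: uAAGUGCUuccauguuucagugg
hsa-miR-302d-3p: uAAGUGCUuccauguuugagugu
hsa-miR-367-3p: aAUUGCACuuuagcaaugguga

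Around MIR9-2 the lists differed in which side of the hairpin held a peak. The shTRA2A list had 1 peak there, at chr5:88667013-88667287 on the 5′ side (score 17.70). The shMETTL3 list had 1 peak on the 3′ side, at chr5:88666788-88666837 (score 22.38). The control list had the 350 nt peak described above (score 41.69), a 200 nt peak at chr5:88666713-88666912 that ran into the hairpin (score 23.45) and a 50 nt peak further 5′ (score 11.04). So the 5′ control peak was under an shTRA2A peak, the 200 nt one was under the shMETTL3 peak, and the smallest was under neither. A score is the authors' own value for a peak within its list. Its scale is unstated, so scores are not compared between lists. MIR9-2HG and LARP7 were picked out after their values were seen.

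No genome sequence was used here, so the peaks' own sequence could be read only where they touched a RefSeq promoter window (250 bases before to 50 after a gene start). That held for 10 of the 421 peaks, 2.38% (1.15 to 4.33%), and for 2.19% of control peaks missing in both knockdowns. Those 10 peaks touched 12 windows, 3 of them over their whole length. The 5 motifs searched on the strand of the peak, forms of the m6A consensus, were GGACT and GGACA, then GAACT and AGACT, and also AAACT. At least 1 of the 5 occurred in each of the 3 fully covered windows, and at least 1 occurs on the gene strand in 71.6% of all 35116 windows of that length and on either strand in 91.0%. Of the 3, the windows of TMEM186 and PMM2 overlap under the same peak and hold the same GGACA, so they are not separate instances. The window of MAP9-AS1 is shown because 2 of the described peaks, on opposite strands, touch it. The site lies at chr4:155354223-155354247, minus strand, GRCh38.p14, opposite to the strand of MAP9-AS1. Only GGACA is in capitals, and the stretch also holds AAACT, another motif searched. GGACA is found on the gene strand in 25.4% of windows and on either strand in 43.8%. Since the site is opposite to its gene, the gene-strand share is not a direct background for it. A match is a description of the letters and does not locate a methylated base.
MAP9-AS1 window: tcaaacttctGGACAaaaactccag

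As background to these counts, 9.58% of all control peaks were on an shTRA2A peak and 82.1% were on no shMETTL3 peak. The shTRA2A list holds 2736 peaks, the shMETTL3 list 5433 and the control list 9206. Library depth is unknown here. Of the 882 control peaks on an shTRA2A peak, 421 were on no shMETTL3 peak, 47.7% (44.4 to 51.1%), and 461 were found in both knockdowns. A further 1189 were missing only after TRA2A knockdown and 7135 were missing in both. Brackets give exact Clopper-Pearson 95% intervals, which cover counting error alone and treat peaks as independent. Amplified reads are not independent molecules.

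By control score, the peaks missing only after METTL3 knockdown were of intermediate strength. Their median control score was 17.92, with quartiles of 12.64 and 29.75, against 33.25 for peaks found in both knockdowns, 17.77 for peaks missing only after TRA2A knockdown and 11.43 for peaks missing in both. The best-scoring 20% of the control list held 180 of the 421, 42.8% (37.98 to 47.64%), against 73.8% (69.5 to 77.7%) of the peaks found in both. The quartiles of the 1189 peaks missing only after TRA2A knockdown, 12.76 and 27.55, were close to those of the 421. Median width was 225 nt in each of these classes, 325 nt for peaks found in both and 100 nt for peaks missing in both.

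**Figure D1:**
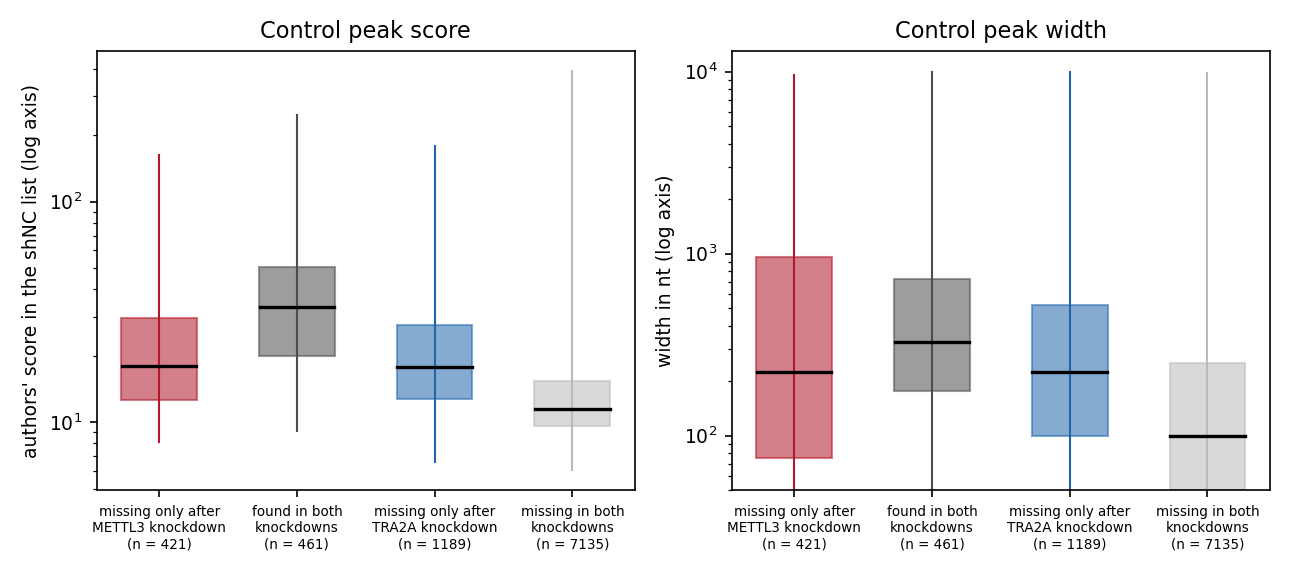
Control peak score (left) and width in nt (right) on log axes for the 4 classes of control peaks. Boxes span the quartiles, the black line is the median and the thin line runs from the lowest to the highest peak. The score median of the peaks missing only after METTL3 knockdown (17.92) lies beside that of the peaks missing only after TRA2A knockdown (17.77) and under that of the peaks found in both (33.25).

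The class was wider in its spread than its median shows. Peaks over 1000 nt made up 102 of the 421, 24.2% (20.2 to 28.6%), against 20.6% of peaks found in both, 17.5% (15.4 to 19.8%) of peaks missing only after TRA2A knockdown and 13.9% of peaks missing in both. Peaks of 75 nt or less made up 25.2% (21.1 to 29.6%), against 10.6% (7.97 to 13.8%), 20.0% and 44.5%. Wide spans may cross introns, which the gene table used here does not mark. Regular peaks (1 block, a multiple of 25 nt wide, at most 1000 nt) were 285 of the 421, 67.7%, against 79.9% of all control peaks.

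Among control peaks on an shTRA2A peak, the share without an shMETTL3 peak was lower at higher control scores. From the lowest to the highest quintile of control score it was 82.4% (56.6 to 96.2%), 81.5%, 72.8%, 55.9% and 34.6% (30.5 to 38.9%). Among control peaks not on an shTRA2A peak it was 97.4%, 92.7%, 87.0%, 81.1% and 64.2% (61.5 to 66.8%). In the lowest quintile this rests on 17 peaks on an shTRA2A peak, 14 of them without an shMETTL3 peak. By width, the share was 70.4% for peaks of 50 nt, 36.1% (30.9 to 41.6%) for peaks over 200 and up to 1000 nt and 51.8% (44.6 to 58.9%) above 1000 nt. The share did not go one way with width.

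**Figure D2:**
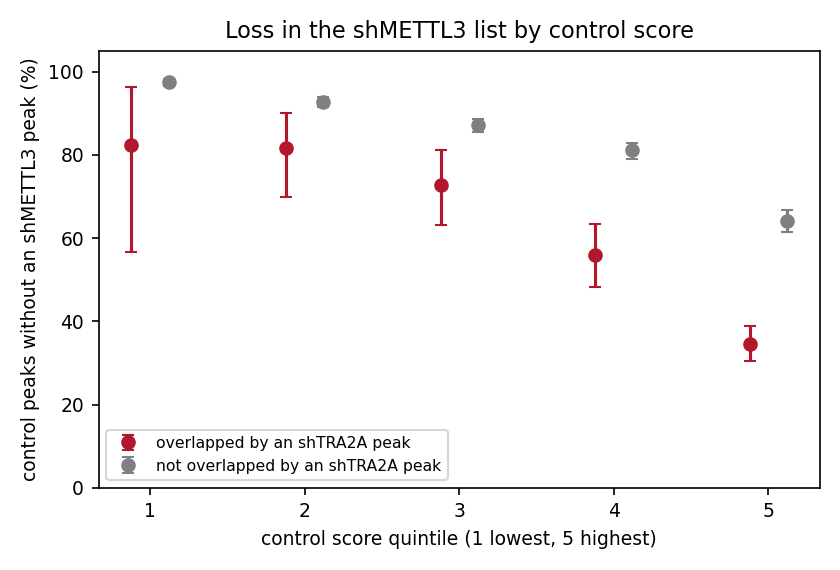
Share of control peaks without an shMETTL3 peak, in percent, by quintile of control score, for peaks overlapped (red) and not overlapped (grey) by an shTRA2A peak. Points are shares and bars exact 95% intervals. In the highest quintile the shares are 34.6% and 64.2%.

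The shTRA2A peaks on these regions lay a little above the middle of their own list. The best shTRA2A score on a member of the class had a median of 8.216 (quartiles 7.793 and 9.193), against 8.927 on control peaks found in both, while the whole shTRA2A list has a median of 7.998. It was above that median on 258 of the 421, 61.3%, against 74.6% of the peaks found in both. A single shTRA2A peak lay on 399 of the 421 regions. The shared stretch had a median of 75 bases, 50% of the control peak. In 48 of the 421 the shTRA2A peak had the same start and end as the control peak, against 34 of the 461 found in both.

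At the edge of the rule, 50 of the 421 shared only 25 bases with an shTRA2A peak, the smallest overlap that occurred, with control scores of 8.544 to 142.5. Just outside, 42 control peaks missing in both knockdowns lay side by side with an shTRA2A peak, with control scores of 8.297 to 26.52. On the shMETTL3 side, 8 of the 421 lay side by side with an shMETTL3 peak (control scores 10.8 to 30.25), and 15 peaks found in both shared only 25 bases with an shMETTL3 peak (control scores 9.54 to 43.75).

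Most of these regions were far from any shMETTL3 peak, 59.9% of them over 10000 nt away on their strand, against 65.5% of peaks missing in both. A smaller number of the 421 lay close to one. An shMETTL3 peak lay within 100 nt of 39 of the 421, 9.26% (6.67 to 12.5%), against 5.70% (5.18 to 6.27%) of the peaks missing in both, and within 1000 nt of 102, 24.2%, against 20.8%. In the highest score quintile the shares within 100 nt were 9.44% (5.598 to 14.69%) and 6.49% (4.92 to 8.36%), intervals that overlap. At the other end, 151 of the 421 had no shMETTL3 peak within 100000 nt on their strand, a count not made for the other classes. The median distance to an shMETTL3 peak was 33800 nt for the class and 51840 nt for peaks missing in both. The 5 named genes with the closest shMETTL3 peak, all with 0 bases between, were COL4A2, a basement membrane collagen, ZMYM4, NIBAN1, TNKS1BP1, a tankyrase-binding protein, and FBXL5, an iron-sensing F-box protein. Their control scores were 30.25, 18.79, 18.46, 15.22 and 13.26.

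**Figure D3:**
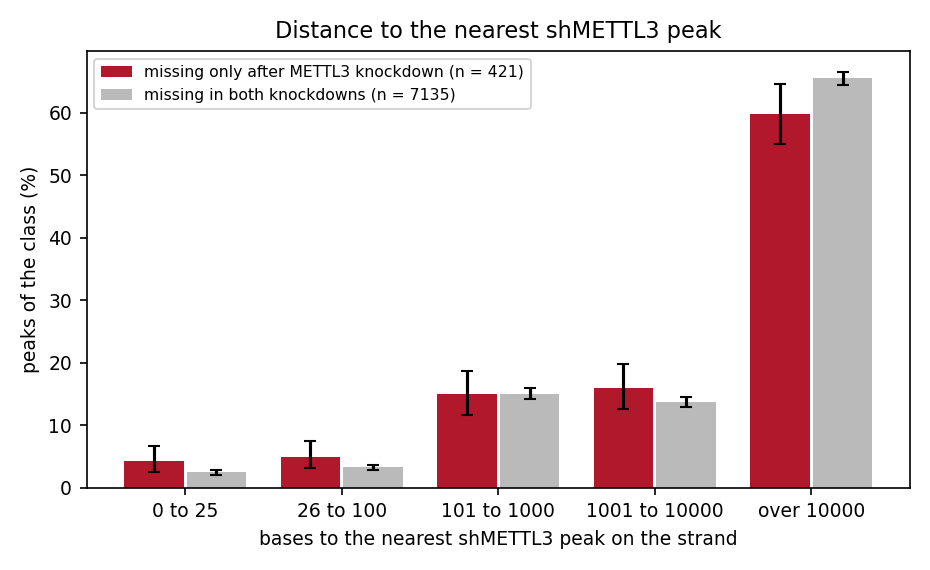
Bases between each control peak and the nearest shMETTL3 peak on its strand, as percent of the 421 peaks missing only after METTL3 knockdown (red) and of the 7135 missing in both knockdowns (grey). Bars are shares with exact 95% intervals. Most peaks of each class, 59.9% and 65.5%, are over 10000 bases away.

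Most genes of the class still had an shMETTL3 peak somewhere. Of the 354 genes, 204 did, 57.6% (52.3 to 62.8%), against 45.8% (44.2 to 47.4%) of the 3788 other control peak genes and 46.8% of all control peak genes. An shTRA2A peak, which the choice of peaks requires here, was in 28.7% of all control peak genes. Genes with more control peaks have more chances to be met in another list. The 354 genes held 669 shTRA2A, 498 shMETTL3 and 1336 control peaks. More shTRA2A than shMETTL3 peaks were found in 215 genes, fewer in 77 and equally many in 62, a split that the choice of the peaks bends towards shTRA2A. Another control peak of the gene was under an shMETTL3 peak in 132 genes, 37.3% (32.2 to 42.6%). In 78 genes the described peak was the only control peak, and 58 of these genes, 74.4% (63.2 to 83.6%), had no shMETTL3 peak at all. Among genes of the class with 2 or more control peaks it was 92 of 276, 33.3% (27.8 to 39.2%). The choice of peaks already bars an shMETTL3 peak from the only control peak of the 78, which raises their share. Genes with a single control peak outside the class were not counted.

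Counted by peak, 59.1% (54.1 to 64.0%) of the class lay in a gene with an shMETTL3 peak, against 49.4% (48.2 to 50.6%) of control peaks missing in both and 58.9% of all assigned control peaks. From the lowest to the highest score quintile the share for the class was 71.4% (of only 14 peaks), 43.8%, 54.9%, 55.9% and 65.7% (58.2 to 72.7%). For peaks missing in both it was 41.9%, 47.2%, 53.1%, 53.1% and 56.5% (52.9 to 59.9%). The intervals of the highest quintile overlap, and in quintile 2 the class had the lower share. Within genes, 314 of the 354 held a single peak of the class, 34 held 2, 5 held 3 and 1, FAT1, held 4.

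Among genes with the best control scores, several kept shMETTL3 peaks beside the missing region. SEMA3A, a secreted axon guidance factor, had shTRA2A peaks of score 14.82 and 9.555 on its control peak at chr7:83961427-83961776 (score 99.53, rank 52 of the control list). The nearest shMETTL3 peak was 225 nt away (score 18.81), on the adjoining control peak, which was found in both knockdowns. RBM12, an RNA-binding protein, had an shTRA2A peak of 75 nt (score 11.42) at the edge of its control peak at chr20:35654843-35655342 (score 98.32). Its shMETTL3 peaks lay on 2 other control peaks of the gene, and in all it had 4 shTRA2A, 2 shMETTL3 and 4 control peaks.

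ARHGAP5, a GTPase-activating protein, held 3 peaks of the class within chr14:32090582-32094081, with control scores of 92.44, 46.08 and 46.68. All 5 shTRA2A peaks of the gene lay on them, with scores of 7.708 to 8.514. Its only shMETTL3 peak, at chr14:32094107-32094231 (score 7.566), had the same ends as a control peak that no shTRA2A peak touched. It lay 25 nt from the peak of the class with score 46.68. The 2 knockdown lists therefore marked neighbouring and separate peaks of the same gene, which had 11 control peaks.

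MEIS2, a homeobox transcription factor, held 2 peaks of the class. The control peak at chr15:36891729-36892278 (score 59.06) had 3 shTRA2A peaks on it, among them the best shTRA2A score of the class, 35.31, from a peak of 2408 nt. The other, of 100 nt, had a control score of 13.51. An shMETTL3 peak with a score of 60.93 lay 100 nt from the stronger peak, on its 3′ side. MEIS2 had 8 shTRA2A, 7 shMETTL3 and 6 control peaks, so the knockdown lists held more peaks there than the control. ZC3H13, a subunit of the m6A writer complex, also had an shMETTL3 peak close by. An shTRA2A peak of 100 nt (score 10.08) reached 25 bases into the control peak at chr13:46001419-46003246 (score 25.83), and an shMETTL3 peak of 6838 nt (score 37.55) lay 75 nt away on the 5′ side. It had 8 shTRA2A, 13 shMETTL3 and 9 control peaks.

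**Figure D4:**
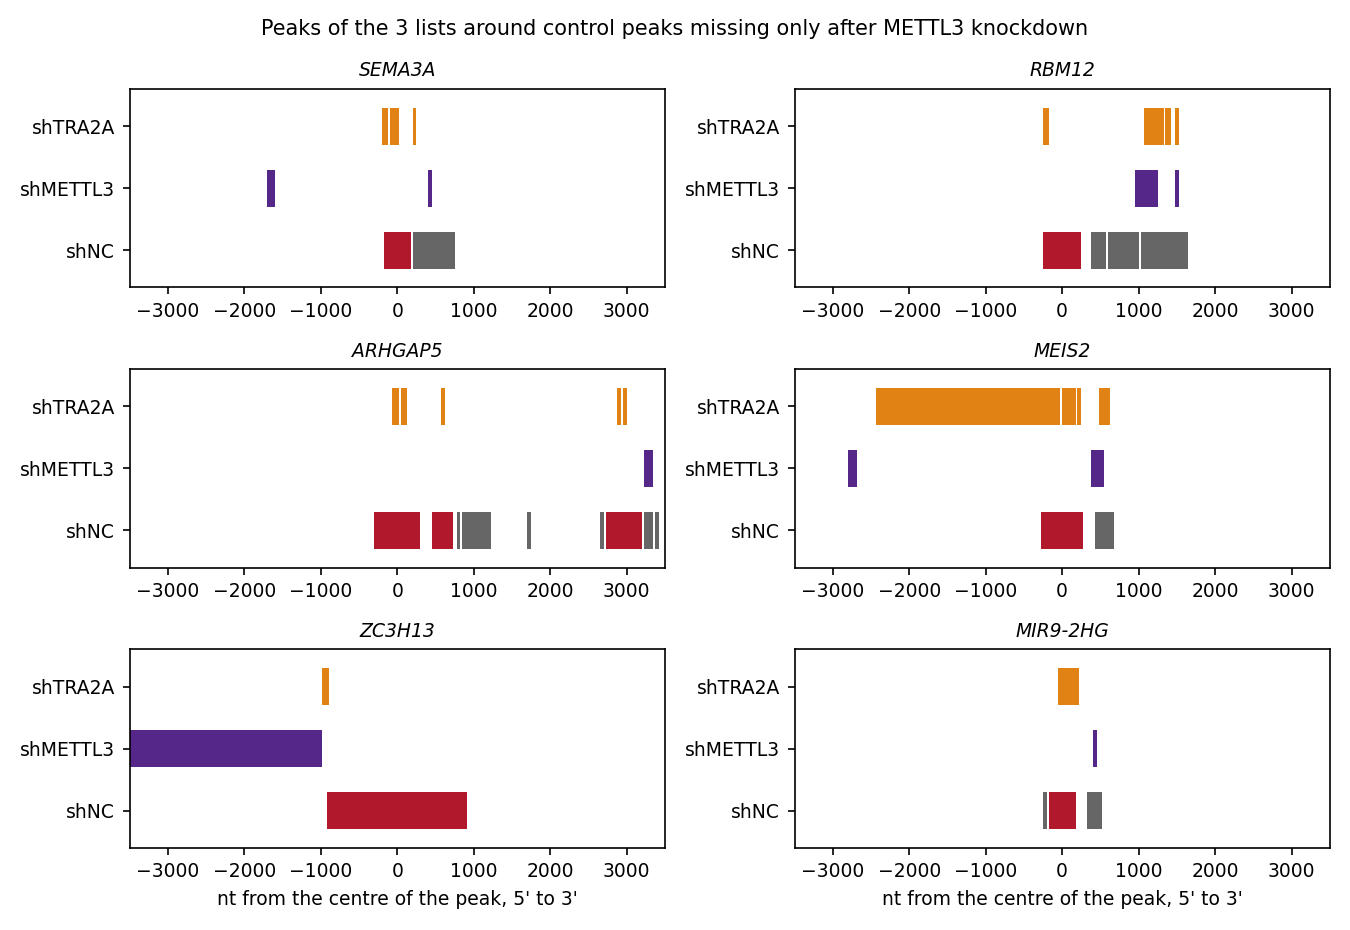
Peaks of the shTRA2A, shMETTL3 and shNC lists on the strand of the gene's best-scoring described peak, with position in nt from that peak's centre, read 5′ to 3′. Red bars in the shNC row are control peaks missing only after METTL3 knockdown, and the other bars are all other peaks assigned to the gene. In SEMA3A, ARHGAP5, MEIS2, ZC3H13 and MIR9-2HG an shMETTL3 peak lies within 225 nt of a red bar without touching it.

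In other leading genes the nearest shMETTL3 peak was over 1000 nt away. ATP2B1, a plasma membrane calcium pump, had an shTRA2A peak of 50 nt (score 7.036) inside its control peak at chr12:89590749-89591198 (score 98.97), and its nearest shMETTL3 peak was 20856 nt away. ITGB8, an integrin subunit, had 1 control peak, at chr7:20409728-20410223 (score 76.64), with 2 shTRA2A peaks on it. Its shMETTL3 peak (score 4.739) was 78476 nt away, towards the 5′ end of the gene. ATRX, a chromatin remodeller that is often mutated in glioma, had an shTRA2A peak of 4453 nt (score 25.25) inside a control peak of 4528 nt (score 75.48). It had 3 shTRA2A, 3 shMETTL3 and 6 control peaks, 2 other control peaks were found in both knockdowns, and the nearest shMETTL3 peak was 25260 nt from the region. MKI67, the proliferation marker that coats mitotic chromosomes, had 5, 6 and 17 peaks, with a described peak of 1127 nt (score 65.92) that was 1750 nt from an shMETTL3 peak. TRIP12, a ubiquitin ligase, held 2 neighbouring peaks of the class (scores 62.60 and 40.55), with 3, 1 and 3 peaks in the shTRA2A, shMETTL3 and control lists and 91997 and 91797 nt to the shMETTL3 peak.

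In 150 of the 354 genes there was no shMETTL3 peak. The best-scoring of these were ZFPM2, a cofactor of GATA factors (score 142.5), C1GALT1C1, a chaperone needed for O-glycan synthesis (score 92.67), TMX4, a thioredoxin-related membrane protein (score 75.67), PPP4R2, a subunit of protein phosphatase 4 (score 60.66), and SMIM15 (score 59.64). C1GALT1C1 had a single control peak, of 825 nt at chrX:120626224-120627048, with a single shTRA2A peak of 100 nt (score 8.114) on it. ZFPM2 had 4 shTRA2A, 0 shMETTL3 and 3 control peaks, and its best control peak, 9543 nt wide, shared only 25 bases with an shTRA2A peak. The strand of ZFPM2 was not known here. Its 2 peaks of the class lay on opposite strands, so 1 of them was opposite to the gene. EPB41L2, a membrane skeleton protein, EIF3J, a translation initiation factor, and ZBTB47 also had no shMETTL3 peak and had shTRA2A scores of 20.12, 19.02 and 18.70 on the region, among the 8 genes with the best shTRA2A scores. TNKS1BP1, with an shTRA2A score of 21.09, is another, and had 4 shTRA2A, 7 shMETTL3 and 1 control peak. In EIF3J the shTRA2A and the control peak had the same ends, chr15:44550841-44551440. In ZBTB47 the shTRA2A peak, 325 nt wide, shared only 25 bases with the control peak.

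Of the 40 genes with 2 or more peaks of the class, 13 had no shMETTL3 peak, 32.5% (18.6 to 49.1%), among them ZFPM2 and SMARCC1. That is near the 33.3% among all genes of the class with 2 or more control peaks. FAT1, a large cadherin, had 4 peaks of the class, with control scores of 26.53, 20.21, 15.42 and 11.68. Each was under a single shTRA2A peak (scores 12.77, 8.204, 7.951 and 8.112). Its nearest shMETTL3 peaks were 225 to 938 nt from them, and the gene had 8 shTRA2A, 9 shMETTL3 and 21 control peaks. CAMSAP2, which binds microtubule minus ends, had 3 with control scores of 37.04, 28.77 and 14.92, and 3, 4 and 9 peaks in the shTRA2A, shMETTL3 and control lists. MAP9, a microtubule-associated protein, had 3 with control scores of 30.10, 29.95 and 22.64, of which the first and the second in that order lay on the strand opposite to the gene. Its single shMETTL3 peak touched none of its 4 control peaks on their strand.

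Among SR proteins and splicing factors, 8 of 66 control peaks belonged to the class, 12.1% (5.38 to 22.5%), beside 4.57% of all control peaks. Their control peaks were strong on the whole, with a median score of 18.77 against 12.43 for the list, and of their 15 peaks on an shTRA2A peak the 8 made up 53.3% (26.6 to 78.7%), close to the 47.7% of all such peaks. RBM25, a regulator of splice site choice, had 2 neighbouring ones (scores 47.85 and 39.10) under a single shTRA2A peak of 2605 nt (score 25.25). U2SURP, a U2-associated protein, had a single control peak (score 42.91) and no shMETTL3 peak. THRAP3, a splicing-associated protein (score 28.57), had 3, 0 and 2 peaks and DDX46, a spliceosomal helicase (score 26.95), 1, 1 and 4.

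Of genes that erase or read m6A, 3 of 22 control peaks were in the class, 13.6% (2.91 to 34.9%), an interval that holds the 4.57% of all control peaks, and 4 of the 22 were on an shTRA2A peak. YTHDC1, the nuclear YTH reader, had 2, at chr4:68337374-68337719 (score 48.69) and chr4:68314037-68314136 (score 21.73), with 3 shTRA2A, 1 shMETTL3 and 5 control peaks. RBMX, an RNA-binding protein described as a reader, had 1 of 75 nt whose ends the shTRA2A peak shared (score 26.70), and no shMETTL3 peak. Of 33 control peaks in writer genes, the ZC3H13 peak was the only one in the class, 3.03% (0.0767 to 15.8%).

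Chromatin regulators had 8 of 223 control peaks in the class, 3.59% (1.56 to 6.95%), near the share of all control peaks. Besides ATRX, SMARCC1, a core subunit of SWI/SNF remodellers, had 2 (scores 35.96 and 16.51), each nearly the same as an shTRA2A peak, and the gene had 2, 0 and 5 peaks in the shTRA2A, shMETTL3 and control lists. ARID2 (score 33.26) and ARID1A (score 20.84), DNA-binding subunits of such remodellers, had 1, 0 and 2 and 1, 4 and 11 peaks. In ARID1A an shMETTL3 peak lay 25 nt from the region.

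Extracellular matrix and adhesion genes had 8 of 96 control peaks in the class, 8.33% (3.67 to 15.8%), beside 4.57% of all control peaks. They were 8 of the list's 17 peaks on an shTRA2A peak, 47.1%, beside 47.7% of all such peaks, and were spread over ITGB8, FAT1, COL4A2 and VCAN. VCAN, the proteoglycan versican, had 2 (scores 30.50 and 11.03) with 7 shTRA2A, 5 shMETTL3 and 24 control peaks. Glioma, neural and mesenchymal regulators had 6 of 59, 10.2% (3.82 to 20.8%), an interval that holds 4.57%, and 6 of 16 on an shTRA2A peak, 37.5% (15.2 to 64.6%), beside 47.7%. Besides MEIS2, MET, the hepatocyte growth factor receptor, had 1 at chr7:116699689-116699963 (score 38.54) and 1, 0 and 3 peaks. Its strongest control peak, with a score of 82.25, was missing in both knockdowns. ZEB1 (score 20.04), a mesenchymal transcription factor, had 1, 0 and 7 peaks, and SOX4 (score 18.23), a neural one, 2, 3 and 7.

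Cell cycle, replication and repair genes had 6 of 104 control peaks in the class, 5.77% (2.15 to 12.1%), near the 4.57% of all control peaks. Besides MKI67 they included SMC2, a condensin subunit, with a single control peak (score 21.09) and no shMETTL3 peak, CDK12, a transcription-coupled kinase (score 18.78), and CENPF, a kinetochore protein (score 15.99), with 2, 12 and 26 peaks. Zinc finger genes named ZNF had 17 of 595, 2.86% (1.67 to 4.54%), beside 4.57% of all control peaks, of which ZNF644 (score 41.49), ZNF451 (40.69), ZNF217 (35.86) and ZNF654 (35.27) had the best control scores. Only 30 ZNF control peaks were on an shTRA2A peak, and 17 of 30 is 56.7% (37.4 to 74.5%), beside 47.7% of all such peaks. Endocytosis and recycling genes had 1 of 47, 2.13% (0.0539 to 11.3%) beside 4.57%, in ITSN2, an endocytic scaffold (score 41.05), with 3, 0 and 2 peaks.

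No peak of the class lay in an interferon-stimulated or EGFR and RAS signalling gene of the lists. That is 0 of 90 control peaks, which allows a share of up to 3.33% by 3 counts of the total and 4.02% by the exact interval, and 0 of 40, which allows up to 7.5% and 8.81%. Just 3 and 2 of these peaks were on an shTRA2A peak at all, so few could have qualified. IFIT1, IFIT2, IFIT3, IFIT5 and EGFR, which the series title speaks of, had none. Ribosomal protein genes and markers of other brain and blood cells had no control peak.

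**Figure D5:**
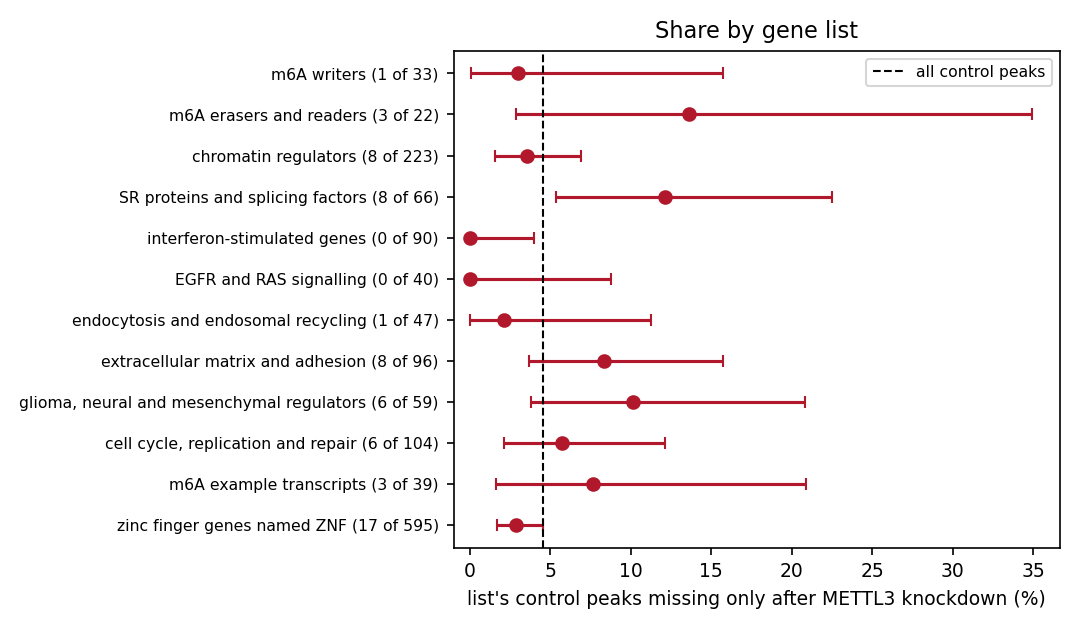
Share of each gene list's control peaks that were missing only after METTL3 knockdown, in percent, with exact 95% intervals. The dashed line marks the 4.57% of all control peaks, and numbers in brackets are peaks of the class and control peaks of the list. Splicing factors sit at 12.1%, interferon-stimulated genes at 0%.

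Along gene bodies, introns included, the median peak of the class lay further from the 3′ end than those of the other classes. The shares in the last 10% of the gene body had overlapping intervals. The medians have no interval, and distances in nt also depend on gene length. Where the gene's strand was known and matched, 29.8% (24.8 to 35.1%) of the class had their middle in the last 10% of the gene body. It was 31.6% (26.9 to 36.6%) of peaks found in both, 33.8% of peaks missing only after TRA2A knockdown and 33.9% of peaks missing in both. Of all control peaks it was 33.6% (32.5 to 34.7%). In the first 10% lay 4.70% (2.66 to 7.64%) of the class, against 5.95% of all control peaks. The median distance to the gene's 3′ end was 10210 nt, against 6926 nt for peaks found in both, 7244 nt for peaks missing only after TRA2A knockdown and 7009 nt for peaks missing in both. The median position, from 0 at the gene's start to 1 at its end, was 0.725 for the class and 0.785 for all control peaks. Coding genes held 92.6% of the class and of all control peaks. Exon, intron and UTR are not marked in the gene table, so positions within transcripts were not resolved.

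Long non-coding genes held 11 of the 421, 2.61% (1.31 to 4.63%), against 2.15% of all control peaks. Those picked out after their values were seen are MEG3, an imprinted transcript, whose peak at chr14:100831859-100832183 (score 24.97) had 2 shTRA2A peaks on it and whose gene had 3, 0 and 2 peaks, and CHASERR, a transcript beside CHD2, with 1, 0 and 1. TUG1, known as a non-coding transcript but listed as coding in the gene table and so not among these 11, held 3 of the class and 5, 6 and 16 peaks. Of these, the peaks at chr22:30978728-30978802 (score 74.55) and chr22:30976840-30976914 (score 74.12), both 75 nt, lay on the strand opposite to TUG1, and the third, at chr22:30973095-30973469 (score 31.02), on its own strand. OGFRL1, whose peak of 8640 nt has the best control score of the class (161.8, rank 9) and an shTRA2A score of 34.86, and CEP170, a centrosomal protein (score 105.4), also had theirs on the opposite strand. At the place of the OGFRL1 peak, shMETTL3 peaks lay on the other strand, which is that of the gene.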

How the data were processed

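Per the labels' protocols, fragmented total RNA was made into stranded paired-end libraries. GRCh38, featureCounts 2.0.1, HISAT2 2.2.1 and SAMtools are listed, with no role, per the submitters' processing notes. For the peak caller and its thresholds the sources used here give nothing. The authors deposited 12-column BED lists whose column 5 holds a score per peak, with no stated scale. Of 4 lists, 3 match a condition. The other fits no label by name, equals the shTRA2A list byte for byte and was not used.

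Overlaps used pandas 2.3.3 and numpy 2.4.6, intervals scipy 1.17.1 and figures matplotlib 3.10.9, in Python 3.11.15. The code was tested on simulated data, and its calls for the 9206 control peaks differed from those of bedtools 2.31.1 in 0 cases. Genes are RefSeq gene bodies (GRCh38.p14, 20056 coding and 18330 long non-coding). A peak got the coding gene it touches or, of several, the one that holds it and lies inside all others. Failing that, long non-coding genes were used in the same way. Strand was not used to assign genes. Gene strand came from the RefSeq promoter table. Coordinates count from 1.

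The members, the 14 gene lists and the naming rule were chosen with earlier results of these data known. Named were the 15 genes of best control score, the 8 of best shTRA2A score, 5 each with most such peaks, with the closest shMETTL3 peak and with the best score and no shMETTL3 peak, up to 4 per list, and TRA2A, METTL3, 4 IFIT genes and EGFR.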

Additional observations from a re-analysis of the deposited data

How the results depend on the processing

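The number of peaks missing only after METTL3 knockdown stayed within 1.5 times of 421 under all 8 alternatives, from 282 with regular peaks only to 567 with an shMETTL3 list cut by score to the length of the shTRA2A list. Requiring 25 shared bases could change nothing, 421, although it is counted among the alternatives. No shTRA2A overlap was smaller than 25 bases, nor was any shMETTL3 overlap of peaks found in both. The share of shTRA2A-overlapped control peaks without an shMETTL3 peak, 47.7%, moved outside its interval under 3 of 8 alternatives. It was 43.3% when an shMETTL3 peak within 100 nt counted as found, 58.1% when each list kept its better-scoring 50%, and 64.3% with the shortened shMETTL3 list. The last comes from fewer shMETTL3 peaks by construction. The share of genes with an shMETTL3 peak elsewhere, 57.6%, moved under 2 of 9, to 51.3% with regular peaks only and 46.3% with the shortened list, which holds fewer peaks. Overlap on either strand gave 433 peaks. No paired analysis was possible because each condition has 1 library pair. Depth per library is not known, so a missing peak may be one that was not detectable.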

Other observations

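Some regions of the class carried peaks on both strands. Of the 421, 34 had a control peak at the same place on the other strand, 8.08% (5.66 to 11.1%), against 7.02% of all control peaks. An shTRA2A peak was on the other strand too in 15 of these 34, and an shMETTL3 peak in 6. Neither count was made for all control peaks. In 6 places 2 regions of the class faced each other on opposite strands, in MAP9, ZFPM2, EFNB2, SIPA1L1, BCL2L1 and JPX. In EFNB2, an ephrin ligand, the facing control peaks at chr13:106491247-106491546 and chr13:106491245-106491544 had the same score, 29.54. In BCL2L1, an inhibitor of apoptosis, the scores were 36.85 and 37.46, and in JPX, a long non-coding transcript, 35.85 and 39.42. These genes were picked out after their values were seen.

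Of the 342 peaks of the class in a gene of known strand, 23 lay on the opposite strand, 6.73% (4.31 to 9.92%), against 4.71% (4.24 to 5.22%) of all control peaks. An shMETTL3 peak lay on the other strand at the place of 7 of the 421, 1.66% (0.671 to 3.40%), near the 1.62% of all control peaks. Without strand those 7, among them the OGFRL1 peak with the best control score of the class, would count as found in the shMETTL3 list.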
